A study of Mus musculus with 4 samples.

Results

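Voltage-gated sodium and calcium channels and the hyperpolarization-activated HCN channels are described here at the mRNA level in the mouse hippocampus, the brain region that serves memory formation. The genes were chosen by symbol from a list of 32, with no use of their values. Since Scn2a1 is an older symbol of Scn2a, the list came to 31 of the 19230 genes in the table. They comprise 7 pore-forming and 3 accessory genes of sodium channels, 10 pore-forming and 8 accessory genes of calcium channels, and 3 HCN genes. The test took in the 26 genes whose level averaged 1 FPKM or more. FPKM counts fragments per kilobase of transcript and corrects for how many fragments were mapped in a library. Levels of different genes can thus be compared within a library, apart from trends with transcript length, as described below for LA replicate 2. The LA group comprised C57BL/6 mice aged 12 months that had been given Licochalcone A (LA), a chalcone flavonoid of licorice, for 30 days, and is held in 2 hippocampus libraries, replicates 1 and 2. The Ctrl group comprised C57BL/6 mice of the same age, also with 2 libraries, replicates 2 and 3. Its treatment label is a term for cell culture, so what the Ctrl mice received is not known here, and neither is the dose of LA. The mRNA was selected by its poly(A) tail from bulk tissue, in which fewer cells of a type and less RNA per cell cannot be told apart. Whether each library stands for a different mouse is not stated in any source used here. The spread that the p-values rest on may therefore be technical.

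Each voltage-gated sodium channel (Nav) is built around a single large alpha subunit that forms the pore and starts the action potential, while the small beta subunits set its gating and its place in the membrane. Calcium channels (Cav) follow the same plan, with an alpha1 pore subunit, a beta subunit inside the cell and an alpha2delta subunit outside it, and they couple depolarization to transmitter release, firing patterns and gene expression. HCN channels open on hyperpolarization and carry the current that sets the resting potential and the integration of inputs in the dendrites of hippocampal pyramidal cells.

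FPKM summed to 388932 and 441948 in LA replicates 1 and 2, against 386945 and 394912 in Ctrl replicates 2 and 3. The relative depth, read from the FPKM that 1 fragment adds to a gene with 1 annotated transcript, lay between 93.4% and 100%. All 14 pan-neuronal markers were tested, with a summed level of 2943 and 3882 FPKM in LA and 3414 and 3037 FPKM in Ctrl, and none of the 6 dentate granule and 5 CA1 markers was at 0 in all libraries. Markers of the choroid plexus, the secretory tissue of the brain ventricles, summed to 58.1 and 88.2 FPKM in LA, against 21.5 FPKM in Ctrl replicate 2 and 7554 FPKM in Ctrl replicate 3. The part of this difference in the channel values was not tested, and each channel gene was also fitted without Ctrl replicate 3.

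No channel gene passed the threshold of an adjusted p of 0.05 in LA compared with Ctrl (limma on log2(FPKM + 1) with Benjamini-Hochberg adjustment over 13518 genes). The count was 0 of 26 in either direction, while 0% of all genes tested were called higher and 0.141% were called lower. At an unadjusted p under 0.05, 0 channel genes were higher with LA, where 3.74% of all genes were, and 2 were lower, where 4.06% of all genes were. The 2 genes were Cacnb2 and Cacna2d2. With the LA libraries both above the Ctrl libraries there were 0 of the 26 genes, where 17.6% of all genes had such values. With the LA libraries both below the Ctrl libraries there were 7 of the 26 genes, namely Scn1a, Scn2a, Scn3b, Scn4b, Cacna1c, Cacnb2 and Cacna2d2, where 21% of all genes had such values. The log2 fold change (LA over Ctrl) was negative in 20 of the 26 genes, where 52.4% of all genes were. Its median was -0.10, compared with -0.01 over all genes tested. Without LA replicate 2 the median was 0.05 with 10 of 26 negative, and without LA replicate 1 it was -0.24 with 21 of 26 negative.

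**Figure D1:**
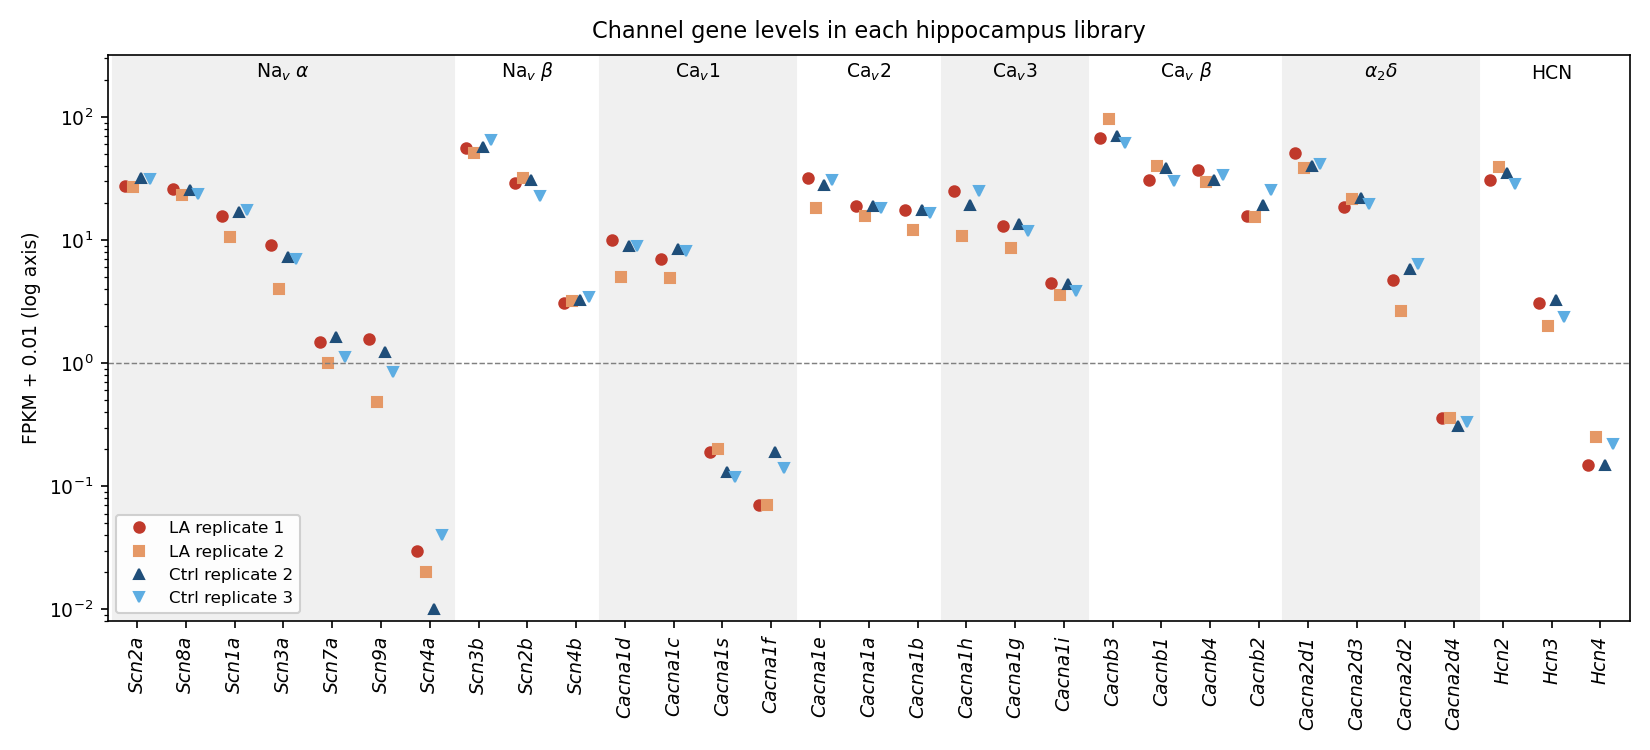
FPKM of the 31 channel genes in each library, with 0.01 added so that 0 can be drawn on the log axis, by family and ordered by mean level within each family. Circles and squares are LA replicates 1 and 2 and triangles are Ctrl replicates 2 and 3, and the dashed line marks 1 FPKM. Levels span from Cacnb3, at 61.1 FPKM or more in every library, to Scn4a, at 0.03 FPKM or less.

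The families were carried by a few genes each. The 7 Nav alpha genes together gave 81.3 and 66.1 FPKM in LA and 84.6 and 81.8 FPKM in Ctrl. Scn2a, the sodium channel of excitatory axons, made up 33.8% and 40.8% of this sum in LA and 37.9% and 38.5% in Ctrl. Scn8a, which drives firing at the axon initial segment and the nodes of Ranvier, made up 31.9% and 34.9% in LA and 30.3% and 28.9% in Ctrl, so its share was higher in both LA libraries. Scn1a, the channel best known for its role in inhibitory interneurons and for Dravet syndrome, made up 19.4% and 16.1% in LA and 19.8% and 21.5% in Ctrl, a share that was lower in both LA libraries. The shares are a description, since the smallest p of an exact two-sided permutation of 2 libraries against 2 is 0.333. A trend with transcript length in a library, as described below for LA replicate 2, can also enter them.

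Scn2a (chromosome 2, 65620764 to 65767447 in GRCm38) was at 27.5 and 26.9 FPKM in LA, against 32.1 and 31.5 FPKM in Ctrl. Both LA libraries lay below both Ctrl libraries, and the replicates of each group were close to each other. The log2 fold change was -0.22 (95% interval -0.55 to 0.12, adjusted p = 0.762 from limma). Scn1a (chromosome 2, 66270781 to 66440837) was at 15.7 and 10.6 FPKM in LA, against 16.8 and 17.6 FPKM in Ctrl. LA replicate 1 was near the Ctrl libraries and LA replicate 2 was well below them, which gave a log2 fold change of -0.38 (95% interval -0.86 to 0.10, adjusted p = 0.720). Scn8a was at 26.0 and 23.1 FPKM in LA and 25.6 and 23.6 FPKM in Ctrl. Its groups overlapped, and the interval of its log2 fold change ran from -0.36 to 0.35 around -0.01.

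The less abundant Nav alpha genes gave no call either. Scn3a, a sodium channel known mainly from the embryonic brain, was at 9.05 and 3.97 FPKM in LA, against 7.26 and 7.08 FPKM in Ctrl, so the LA libraries stood on either side of the Ctrl libraries. Scn7a, an atypical channel that senses sodium and is not opened by voltage, ranged from 0.99 to 1.63 FPKM over the 4 libraries. Scn9a, a channel of peripheral nociceptors, ranged from 0.47 to 1.56 FPKM. Scn4a, the skeletal muscle channel, was at 0.03 FPKM or less and was not tested.

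The Nav beta genes were led by Scn3b, with 55.6 and 51.4 FPKM in LA, against 56.7 and 64.8 FPKM in Ctrl. Both LA libraries lay below both Ctrl libraries by a small margin, and the log2 fold change was -0.18 (95% interval -0.54 to 0.19, adjusted p = 0.827). Scn2b, which is linked to the alpha subunit by a disulfide bond, was at 29.1 and 31.7 FPKM in LA and 30.8 and 22.7 FPKM in Ctrl, with a log2 fold change of 0.19. Its groups overlapped, and without Ctrl replicate 3 the log2 fold change was -0.02. Scn4b, the subunit known for resurgent sodium current, was at 3.08 and 3.20 FPKM in LA and 3.28 and 3.44 FPKM in Ctrl. These values did not overlap, but they lay close together and the log2 fold change was -0.07.

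Among the L-type (Cav1) pore genes, Cacna1d and Cacna1c gave nearly the whole family level. Cacna1c, the L-type channel that couples synaptic activity to gene expression, was at 7.07 and 4.92 FPKM in LA, against 8.42 and 8.13 FPKM in Ctrl. Both LA libraries lay below both Ctrl libraries, and Cacna1c had the lowest log2 fold change among the pore genes, -0.42 (95% interval -0.91 to 0.06, adjusted p = 0.690). It lies on chromosome 6 from 118587240 to 119197384. Cacna1d, the L-type channel that opens at more negative voltages, was at 9.98 and 5.02 FPKM in LA and 8.93 and 8.96 FPKM in Ctrl. The Ctrl libraries were almost equal and the LA libraries stood on either side of them. Cacna1s, the skeletal muscle channel, was at 0.18 and 0.19 FPKM in LA and 0.12 and 0.11 FPKM in Ctrl, and Cacna1f, the channel of photoreceptors, was at 0.18 FPKM or less. Both were below the level tested.

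The Cav2 pore genes, whose channels trigger transmitter release at synapses, gave together 68.6 and 46.2 FPKM in LA and 64.6 and 66.0 FPKM in Ctrl. Cacna1e (R-type) was at 32.0 and 18.3 FPKM in LA and 28.2 and 31.1 FPKM in Ctrl. Cacna1a (P/Q-type) was at 18.9 and 15.8 FPKM in LA and 18.8 and 18.3 FPKM in Ctrl. Cacna1b (N-type) was at 17.7 and 12.2 FPKM in LA and 17.6 and 16.5 FPKM in Ctrl. In each of the 3 genes LA replicate 1 was above both Ctrl libraries and LA replicate 2 below them. The log2 fold changes were -0.28, -0.10 and -0.20, and the adjusted p lay at 0.828, 0.928 and 0.848 in the same order of genes.

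The T-type (Cav3) pore genes, whose channels open near the resting potential and support burst firing, were also lowest in LA replicate 2. Cacna1h was at 25.3 and 10.7 FPKM in LA and 19.3 and 24.9 FPKM in Ctrl, the widest gap between the LA libraries on the log2 scale among the channel genes tested. Cacna1g was at 13.1 and 8.61 FPKM in LA and 13.6 and 12.0 FPKM in Ctrl. Cacna1i was at 4.45 and 3.57 FPKM in LA and 4.38 and 3.86 FPKM in Ctrl. LA replicate 1 was above both Ctrl libraries in Cacna1h and Cacna1i and between them in Cacna1g. The groups overlapped in all 3 genes, and the log2 fold changes were -0.39, -0.24 and -0.04 in the same order.

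**Figure D2:**
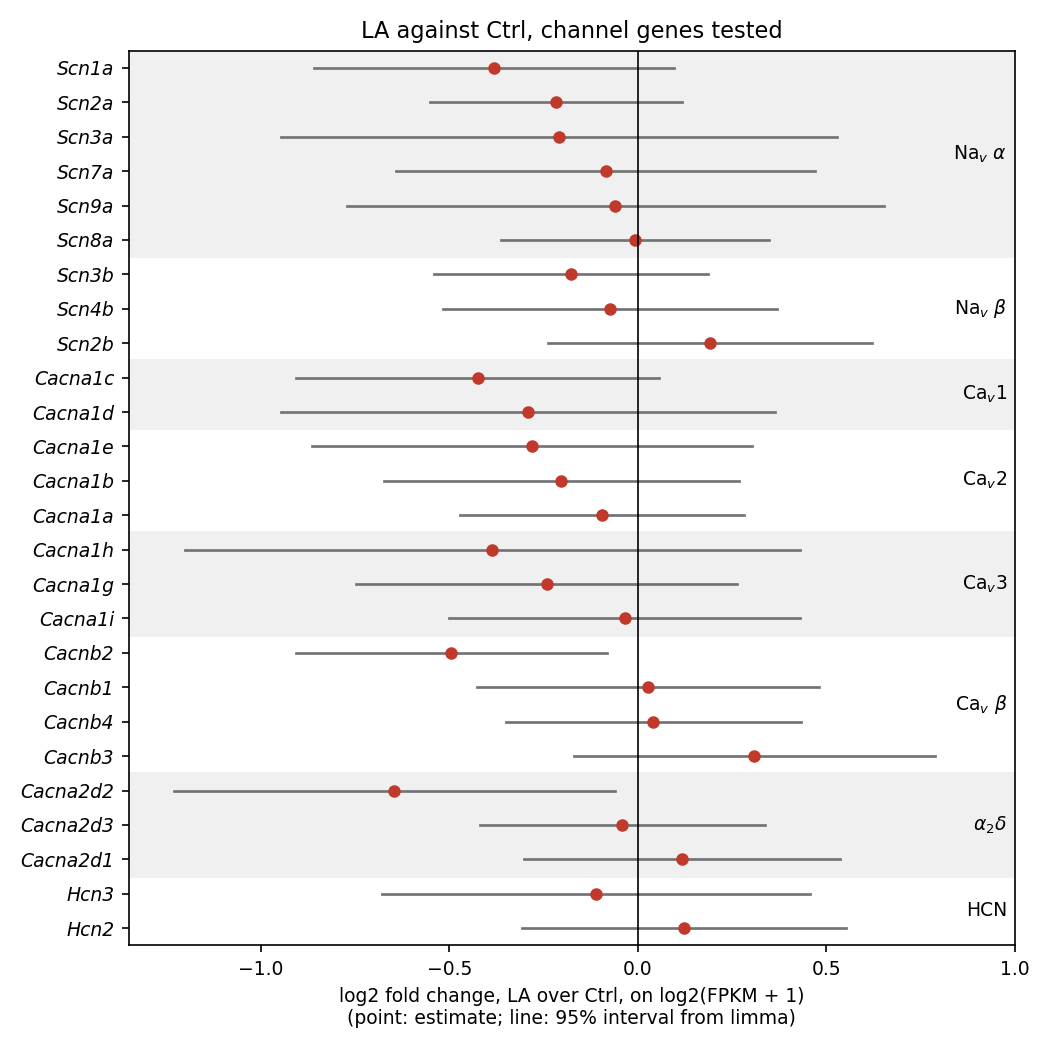
Log2 fold change of the 26 channel genes tested, LA over Ctrl on the log2(FPKM + 1) scale, with points for the estimate and lines for the 95% interval from limma, by family. The intervals of Cacnb2 (-0.91 to -0.08) and Cacna2d2 (-1.23 to -0.06) lie below 0 before adjustment over all genes, and all others cross 0.

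The proteins of the Cav beta genes carry the pore subunit to the membrane and set its gating. Log2 fold changes ran from -0.49 to 0.31 in this family, and from -0.65 to 0.12 in the alpha2delta family. Cacnb2 (chromosome 2, 14603861 to 14988811) was at 15.6 and 15.5 FPKM in LA, against 19.4 and 25.5 FPKM in Ctrl. Both LA libraries lay below both Ctrl libraries and were nearly equal, while the Ctrl libraries were apart. The log2 fold change was -0.49 (standard error 0.176, 95% interval -0.91 to -0.08, adjusted p = 0.607 from limma). Without Ctrl replicate 3 it was -0.31, and without LA replicate 1 or LA replicate 2 it was -0.50 or -0.49. Its share of the Cav beta level was 10.3% and 8.51% in LA and 12.2% and 16.98% in Ctrl.

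Cacnb3, the most abundant of all channel genes tested, went the other way in its estimate. It was at 68.0 and 97.2 FPKM in LA, against 70.0 and 61.1 FPKM in Ctrl. LA replicate 2 was the high library and LA replicate 1 lay between the Ctrl libraries, so the log2 fold change of 0.31 (95% interval -0.17 to 0.79, adjusted p = 0.762) rested on 1 library, and was 0.05 without it. Its share of the Cav beta level was 45.0% and 53.4% in LA and 44.1% and 40.6% in Ctrl. Cacnb1, best known from skeletal muscle, was at 30.6 and 39.8 FPKM in LA and 38.8 and 30.2 FPKM in Ctrl, and Cacnb4, whose loss gives the ataxic lethargic mouse, was at 36.9 and 29.5 FPKM in LA and 30.6 and 33.5 FPKM in Ctrl. The groups overlapped in both genes, with log2 fold changes of 0.03 and 0.04.

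**Figure D3:**
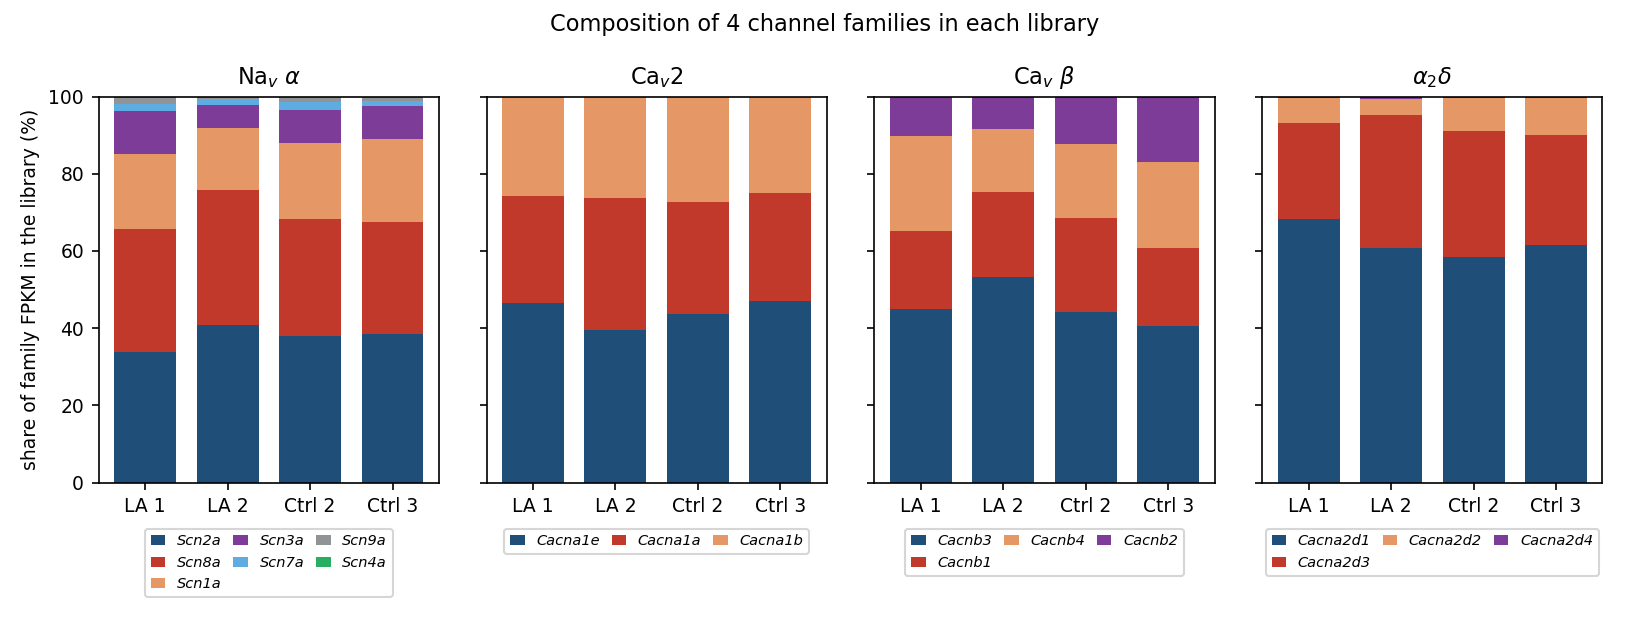
Share of each gene in the summed FPKM of its family, in percent, for 4 of the families, with LA replicates 1 and 2 left of Ctrl replicates 2 and 3. The Cacnb2 part of the Cav beta bars is 10.3% and 8.51% in LA and 12.2% and 16.98% in Ctrl, and the Cacna2d2 part of the alpha2delta bars is 6.30% and 4.17% in LA and 8.60% and 9.44% in Ctrl.

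Promoter windows of Cacnb2 and Cacnb3, the Cav beta genes with the lowest and the highest log2 fold change, are shown beside one of Scn2a, the most abundant Nav alpha gene. RefSeq gives 2 windows for each of the 3 genes, and the one with more CG pairs is shown. Each is the 250 bases before a transcript start in RefSeq (GRCm38.p6), written along the strand of the gene, which is the plus strand for all 3. Capitals mark the GC box GGGCGG or its reverse complement, a short element bound by Sp1. The windows lie at chr2:14604056-14604305 for Cacnb2, chr15:98634517-98634766 for Cacnb3 and chr2:65668436-65668685 for Scn2a.
Cacnb2: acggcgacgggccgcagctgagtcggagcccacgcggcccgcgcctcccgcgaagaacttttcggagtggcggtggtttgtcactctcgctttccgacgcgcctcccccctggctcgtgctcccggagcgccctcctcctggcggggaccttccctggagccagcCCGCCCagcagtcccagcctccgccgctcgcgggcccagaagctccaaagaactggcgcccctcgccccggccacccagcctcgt
Cacnb3: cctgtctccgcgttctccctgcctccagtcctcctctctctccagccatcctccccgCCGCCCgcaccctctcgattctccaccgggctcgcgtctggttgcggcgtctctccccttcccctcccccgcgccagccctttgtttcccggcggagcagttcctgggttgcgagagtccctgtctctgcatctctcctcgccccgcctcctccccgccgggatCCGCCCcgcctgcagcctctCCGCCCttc
Scn2a: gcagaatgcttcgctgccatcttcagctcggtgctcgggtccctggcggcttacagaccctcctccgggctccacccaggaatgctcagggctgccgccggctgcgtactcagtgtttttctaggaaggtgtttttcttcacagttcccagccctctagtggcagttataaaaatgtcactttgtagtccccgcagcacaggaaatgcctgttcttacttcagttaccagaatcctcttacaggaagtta
The Cacnb2 window held 30 CG pairs and 1 GC box, the Cacnb3 window 23 CG pairs and 3 GC boxes, and the Scn2a window 9 CG pairs and 0 GC boxes. The windows not shown held 3, 2 and 2 CG pairs in the same order of genes, and 0 GC boxes each. RefSeq gave 34 windows for 24 of the channel genes, with a median of 9 CG pairs, compared with 6 over all 32851 windows. On either strand, GGGCGG was in 15 of the 34 windows and in 32.74% of all windows, CCAAT in 8 and 33.85%, TGACG in 5 and 17.77%, and TATAAA in 2 and 12.37%. These are matches of letters only.

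The alpha2delta genes, whose proteins raise the number of channels at the membrane and bind the drug gabapentin in the case of Cacna2d1 and Cacna2d2, held the lowest estimate of the 26 genes. Cacna2d2 (chromosome 9, 107399733 to 107529346) was at 4.73 and 2.63 FPKM in LA, against 5.85 and 6.43 FPKM in Ctrl. Both LA libraries lay below both Ctrl libraries, LA replicate 2 further than LA replicate 1. The log2 fold change was -0.65 (standard error 0.250, 95% interval -1.23 to -0.06, adjusted p = 0.609 from limma), and it was -0.97 at an adjusted p of 0.082 without LA replicate 1 and -0.32 without LA replicate 2. Cacna2d1, the main gene of the family, was at 51.3 and 38.3 FPKM in LA and 39.7 and 41.9 FPKM in Ctrl. Cacna2d3 was at 18.7 and 21.8 FPKM in LA and 22.1 and 19.5 FPKM in Ctrl. Both overlapped between the groups, with log2 fold changes of 0.12 and -0.04, and Cacna2d4, which is known from the retina, was at 0.35 FPKM or less and was not tested.

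Hcn2, which gives HCN current in many neurons, held 90.5% and 94.7% of the level of the 3 HCN genes in LA and 91.3% and 91.8% in Ctrl. It was at 30.8 and 39.4 FPKM in LA and 35.4 and 28.8 FPKM in Ctrl, with a log2 fold change of 0.12 (95% interval -0.31 to 0.55, adjusted p = 0.909). Hcn3 was at 3.08 and 1.98 FPKM in LA and 3.23 and 2.35 FPKM in Ctrl, and Hcn4, the pacemaker channel of the heart, was at 0.14 and 0.24 FPKM in LA and 0.14 and 0.21 FPKM in Ctrl. The groups overlapped in Hcn2 and Hcn3, and Hcn4 was below the level tested.

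The pore-forming Nav and Cav genes, called pore genes here with the HCN genes left out, lay differently in the LA libraries from their accessory subunits. The log2 fold change was negative in 14 of the 14 pore genes tested, with a median of -0.21, and in 52.4% of all genes tested. However, that of Scn8a was positive with median-ratio scaling, and those of Scn8a, Scn9a and Cacna1i with quantile normalization. Those of Scn8a, Cacna1a and Cacna1i were positive after a correction for length and GC content. Among the 10 accessory genes tested 5 were positive and 5 negative, with a median of -0.01, which lay between -0.11 and 0.04 under the alternatives. All 14 of these Nav and Cav genes were lowest in LA replicate 2, whereas 38.7% of all genes tested were. Of the HCN genes, whose products also form pores, Hcn3 was lowest and Hcn2 highest in that library. The median difference from the Ctrl mean over the pore genes was 0.08 for LA replicate 1, with 3 of 14 below that mean, and -0.49 for LA replicate 2. The LA libraries stood on either side of both Ctrl libraries in 9 of the 14 pore genes, compared with 24.6% of all genes. The median gap between the LA libraries was 0.52 on the log2 scale in the pore genes, compared with 0.10 between the Ctrl libraries, and 0.25 and 0.14 over all genes.

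Transcript length moved with this pattern, and its part in the pattern was not tested. The pore genes had a median transcript length of 9248 bases, compared with 4403 bases for the accessory genes and 3182 bases for all genes tested. Over all genes, sorted by length into 10 classes of about equal size, the median difference of LA replicate 2 from the Ctrl mean ran from 0.28 in the shortest class to -0.23 in the longest, and 67.7% of the longest class were lowest in LA replicate 2. For LA replicate 1 the median was 0.07 in the shortest class and 0.08 in the longest. In the longest class 63.0% of genes had a negative log2 fold change, compared with 52.4% of all genes. Across the 26 channel genes, Spearman's rho between length and the difference from the Ctrl mean was -0.54 for LA replicate 2 and 0.31 for LA replicate 1, compared with -0.39 and 0.05 across 13087 genes. These are descriptions across genes of the same libraries, which are not independent replicates. After each library had been corrected for length and GC content, the median log2 fold change of the pore genes was -0.14, and the log2 fold change was negative in 15 of the 26 channel genes. The summed level of dentate granule markers was also low in that library, with 53.1 FPKM in LA replicate 2 and 88.0 FPKM in LA replicate 1, against 67.0 and 72.7 FPKM in Ctrl. Of these markers only C1ql2, with a transcript of 2000 bases, was not lowest there, at 23.2 FPKM against 22.4 FPKM in Ctrl replicate 3. Prox1, Dsp and Pdzd2 had transcripts of 7913, 9592 and 10756 bases, and Tdo2 and Stxbp6 of 3431 and 4553 bases. The part of dentate granule cells in the pattern was not tested either.

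**Figure D4:**
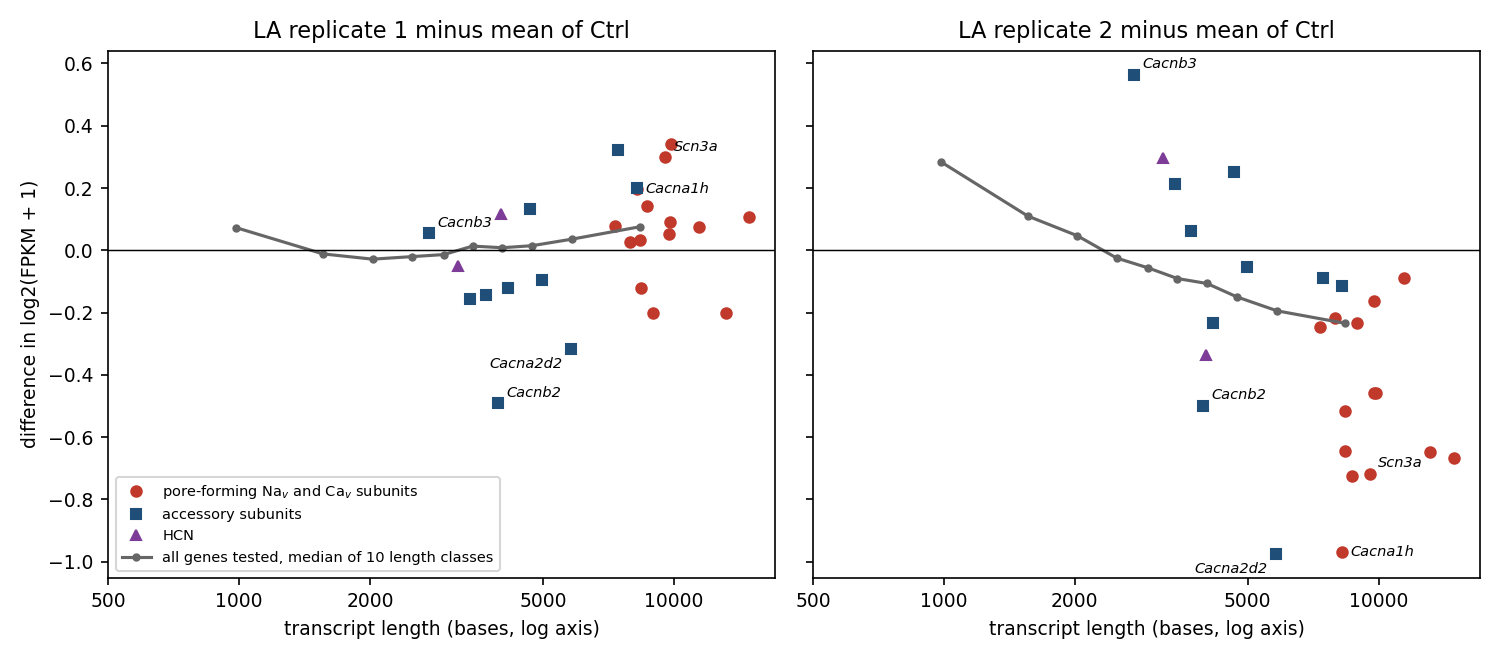
Difference of LA replicate 1 (left) and LA replicate 2 (right) from the mean of the Ctrl libraries, in log2(FPKM + 1), against transcript length in bases on a log axis. Points are the 26 channel genes and the grey line joins the medians of all genes tested in the 10 length classes, drawn at the median length of each class. The line runs from 0.28 to -0.23 for LA replicate 2 and from 0.07 to 0.08 for LA replicate 1.

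Other subunits and partners of these channels gave no call either. Of 17 further channel subunits 12 were tested, with 5 positive and 7 negative log2 fold changes, 0 called and a median of -0.10. Cacng4 and Cacng2, which encode regulators of AMPA receptors related to a calcium channel subunit, had log2 fold changes of -0.25 and 0.19, and Nalcn, the sodium leak channel, had -0.20.

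Of 32 genes whose proteins bind, anchor or regulate the channels 29 were tested, with 14 positive and 15 negative log2 fold changes, 0 called and a median of -0.01. Pex5l, whose product TRIP8b sets the traffic of HCN channels into dendrites, was at 59.6 and 55.9 FPKM in LA, against 76.5 and 75.3 FPKM in Ctrl. The groups did not overlap and the replicates of each group were close, with a log2 fold change of -0.39 (95% interval -0.73 to -0.04, adjusted p = 0.609 from limma). Pex5l also counts among 5 markers of the CA1 field, and the other 4 summed to 136 and 169.7 FPKM in LA and 206 and 169.7 FPKM in Ctrl. These hold Dcn, which is also in the list of meningeal fibroblast markers, and the 3 without it summed to 86.8 and 110.4 FPKM in LA and 136 and 102 FPKM in Ctrl. The part of CA1 tissue in the Pex5l values was not tested. Sptbn4, the spectrin of the axon initial segment, was at 51.8 and 36.0 FPKM in LA and 63.5 and 57.6 FPKM in Ctrl, with a log2 fold change of -0.48 (adjusted p = 0.631). Dpysl2, which encodes CRMP2, a partner of N-type channels, was at 27.02 and 46.6 FPKM in LA and 23.8 and 21.1 FPKM in Ctrl, with a log2 fold change of 0.64 (adjusted p = 0.609). Stac2, a regulator of L-type channels, was at 24.8 and 33.7 FPKM in LA and 22.6 and 20.4 FPKM in Ctrl, a log2 fold change of 0.41 (adjusted p = 0.664).

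The same libraries also differed in markers of other cells. Markers of oligodendrocytes and myelin had a median log2 fold change of 0.94, with 11 of 11 positive and 0 called, and summed to 3577 and 4374 FPKM in LA and 2309 and 2004 FPKM in Ctrl. Markers of meningeal fibroblasts had a median of -2.01, with 7 of 12 called lower, and summed to 86.3 and 100.3 FPKM in LA and 271 and 314 FPKM in Ctrl. Endothelial markers had a median of -0.75 with 7 of 7 negative, pericyte and smooth muscle markers -0.53 with 6 of 6 negative and 1 called lower, microglial markers 0.47 with 8 of 8 positive, and CA1 markers -0.29 with 5 of 5 negative. Pan-neuronal markers had a median of 0.04, with 10 of 14 positive. When the libraries were scaled to equal medians of the pan-neuronal markers, the log2 fold change was -0.53 for Cacnb2 and -0.66 for Cacna2d2, and 0 of the 26 channel genes had an unadjusted p under 0.05. The part of these other cells in the channel values was not tested. Exons of Cacna1d, Cacna1h and Hcn3 share 589, 158 and 711 bases with exons of Chdh, Tpsg1 and Pklr on the opposite strand. Chdh, Tpsg1 and Pklr are among the genes with FPKM values. Scn9a, Cacna1s, Cacna1a, Cacnb1, Cacnb2, Cacnb4 and Cacna2d2 share exon bases with opposite-strand genes that have no FPKM values here. Cacnb4 shares 1433 bases with A430018G15Rik, and Cacnb2 shares 111, 618 and 239 bases with Gm10848, Gm10849 and Gm13269. No source used here states a stranded count, so reads of these stretches cannot be told apart.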

How the data were processed

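The authors deposited FPKM values of 19230 genes, 1 column per hippocampus library, made with TopHat2 and Cufflinks on GRCm38 according to the submitters' processing notes. For the versions and the gene annotation, the sources used here give nothing. All columns of values were mapped to a library by name. FPKM is scaled to the mapped fragments and to transcript length, so counts are known only approximately, from the FPKM that 1 fragment adds per kilobase. For the channel genes tested they came to about 70 (Scn9a in LA replicate 2) to 7480 (Cacna1e in Ctrl replicate 3) fragments per library, with counting errors of up to 12.0%. The relative depth was 93.4% and 94.2% in LA and 100% and 99.7% in Ctrl.

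Genes averaging 1 FPKM or more over the 4 libraries were kept. The log2 values, with a pseudocount of 1, were tested by limma 3.58.1 (R 4.3.3; a linear model on group, moderated with a trend of the variance) with Benjamini-Hochberg adjustment over 13518 genes and a threshold of 0.05. Fold changes are on the log2(FPKM + 1) scale, which understates those of low genes. The procedure was run on simulated data with independent noise in each gene and library, and the outcome is not reported here. Those data held no trend across a library, such as that with transcript length in LA replicate 2. The channel genes were chosen by symbol, without use of their values. They, the lists of related genes and the marker lists were chosen with earlier results of these data known. Values per library are given for the 3 most abundant genes of each family and for the 6 genes of smallest p. From each related list up to 4 genes of smallest p were named, of which some are not reported here. The values of Scn3a in each library, the Scn2a promoter and the related genes named with a changed call were chosen after their values were seen.

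The alternatives were pseudocounts of 0.1 and 0.5, no filter or one at a mean of 5 FPKM, median-ratio, quantile and pan-neuronal scaling, limma with no variance trend or with robust moderation, a spline correction (4 degrees of freedom) for length and GC content of GENCODE M21 transcripts, and each library left out in turn. Gene coordinates and promoter sequences are from RefSeq (GRCm38.p6).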

Additional observations from a re-analysis of the deposited data

How the results depend on the processing

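The count of channel genes called was 0 under each alternative, and the log2 fold changes of Scn1a, Scn2a, Scn3b, Cacna1c, Cacnb2, Cacna2d2 and Cacnb3 kept their sign under each one run. Of 254 values of single channel genes with all 4 libraries 10 turned their sign, and of 104 with a library left out 27 did. In no such case had the gene been called, and the cause was not tested. The number with an unadjusted p under 0.05 (2) was 1 with no filter, 1 with a mean of at least 5 FPKM, 0 with pan-neuronal scaling, and from 0 without Ctrl replicate 3 to 11 without LA replicate 1. It was 3 with the correction for length and GC content. The number whose groups do not overlap (7) was 3 with pan-neuronal scaling, and 11 to 25 with a library left out, where 1 library less makes such values easier to reach. Shares over all genes at the same settings are not given here for either number. The changes in these numbers are therefore not read as results about the channel genes. Of the related genes (0 called), 1 was called with pan-neuronal scaling (Kcne2), and 0 to 2 with a library left out, Kcne2 without Ctrl replicate 2 and Cabp1 and Dpysl2 without LA replicate 1. Kcne2 was at 0.35 and 0.84 FPKM in LA, against 0.72 FPKM in Ctrl replicate 2 and 17.6 FPKM in Ctrl replicate 3, the library with the high choroid plexus markers. The log2 fold change turned to 0.015 for Scn8a with median-ratio scaling, to 0.0043 for Scn8a, 0.0026 for Scn9a and 0.0053 for Cacna1i with quantile normalization, and to -0.0077 for Cacnb1 with pan-neuronal scaling. With the correction for length and GC content it turned to 0.10 for Scn8a, 0.033 for Scn4b, 0.026 for Cacna1a, 0.088 for Cacna1i and 0.032 for Cacna2d3. With a library left out it ran from -0.72 to 0.30 for Scn3a, -0.25 to 0.077 for Scn7a, -0.089 to 0.074 for Scn8a, -0.46 to 0.34 for Scn9a, -0.022 to 0.41 for Scn2b, -0.72 to 0.14 for Cacna1d, -0.22 to 0.028 for Cacna1a, -0.46 to 0.052 for Cacna1b, -0.67 to 0.11 for Cacna1e, -0.52 to 0.033 for Cacna1g, -0.97 to 0.20 for Cacna1h, -0.16 to 0.092 for Cacna1i, -0.16 to 0.21 for Cacnb1, -0.12 to 0.20 for Cacnb4, -0.087 to 0.32 for Cacna2d1, -0.14 to 0.063 for Cacna2d3, -0.050 to 0.30 for Hcn2 and -0.34 to 0.12 for Hcn3. In such fits the group with 1 library takes its spread from the other group. No paired analysis was possible because LA holds replicates 1 and 2 and Ctrl replicates 2 and 3, which share only 1 number. The depth limits the channel genes below the level tested, which had from about 0 to 3 fragments per library for Scn4a up to 28 to 31 for Cacna2d4.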
